A study of Drosophila melanogaster with 18 samples.

Results

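The 40 genes described here are those of Drosophila melanogaster chromosome 4 that remain after 17 named genes were set aside, among them the developmental transcription factor genes toy, ey, ci and sv. They were taken from 65 chromosome 4 genes with a probe set naming no other gene, by the brightest probe set of each gene and a log2 signal of at least 6 in at least 3 of 18 arrays. Of these 65 genes, 55 passed that limit, 15 of them in the set-aside group, and 9 that were not set aside fell under it (Hcf, Sox102F, Kif3C, Ekar, CG32006, fd102C, myo, mGluR and fuss). The gene just inside the limit was dati, with its 3 brightest arrays at 6.04 or above, and the gene just outside was fuss, whose 3 brightest arrays reached at least 5.72. Over all chromosomes 8211 genes passed and were tested. The set-aside genes had been chosen in part for large changes, so the 40 genes do not stand for chromosome 4 as a whole. All 40 are annotated as protein-coding.

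Chromosome 4 is a very small autosome on which active genes lie within chromatin that otherwise carries marks of heterochromatin. POF coats the active genes of this chromosome and binds their nascent RNA, and HP1a, a protein that binds methylated histone H3 lysine 9, is enriched over the same genes. Setdb1 is the histone methyltransferase known for this methylation on chromosome 4, and Su(var)3-9 is the methyltransferase known for it in pericentromeric heterochromatin. POF is known as a stimulator and HP1a as a modulator of chromosome 4 expression.

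Whole first instar larvae were collected about 48 hours after egg laying from cultures at 25 °C, and RNA from 200 pooled larvae was hybridised to each one-colour Affymetrix array. There were 3 arrays each of larvae labelled as HP1a Pof double mutants (HP1a04 PofD119/HP1a05 PofD119), HP1a mutants (HP1a04/HP1a05), Setdb1 mutants (Setdb110.1/ Setdb110.1) and Su(var)3-9 mutants (alleles Su(var)3-9evo and Su(var)3-906), and 6 arrays of wildtype larvae. The Setdb1 mutants were homozygous for their allele, and the other mutants carried a different allele of HP1a or Su(var)3-9 on each of the paired chromosomes. Both groups with HP1a alleles carry the same ones. The series describes the arrays as biological replicates without saying whether they came from separate crosses, so p-values measure the spread between these pools. In RNA of whole larvae, fewer cells of a type and less RNA per cell cannot be told apart.

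Some properties of the arrays touch every comparison below. The gene that encodes HP1a had log2 signals of 9.53 ± 0.08 in arrays with the HP1a Pof label, called labelled double mutants below, and 9.48 ± 0.07 in HP1a mutants, against 10.20 ± 0.05 in wildtype (SD, n = 3, 3 and 6; the same n hold below, with 3 in each other mutant group). Pof went against its label, at 8.32 ± 0.29 in labelled double mutants, 7.05 ± 0.05 in HP1a mutants and 7.49 ± 0.09 in wildtype. Whether its probe set lies in a part that the PofD119 allele removes is not given, so it does not check the label, and the group is called by its label throughout. The genes Setdb1 and Su(var)3-9 themselves were not analysed here. The 12 mutant arrays lay apart from wildtype on the first principal component (scores of -37.9 to -8.3 against 38.1 to 46.4), and a control probe set of 18S ribosomal RNA gave 8.95 to 11.11 in mutants against 12.18 to 12.41 in wildtype. Averaged over 3 gut markers, log2 signals were 8.36 to 9.65 in mutant and 10.51 to 10.83 in wildtype arrays. Since all mutant groups share this distance from the same 6 wildtype arrays, an effect of a mutation and a difference common to the wildtype arrays cannot be told apart. Su(var)3-9 mutant arrays B and C had scores of -36.3 and -43.6 on the next component, against -15.2 for array A.

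CG31998 and the brightest probe set of CG33978 were higher in every mutant group than in wildtype. Crk and the brightest probe set of PlexB were lower in every mutant group. RhoGAP102A and the brightest probe set of CG1674 rose furthest in Su(var)3-9 mutants. A gene was called at a Benjamini-Hochberg adjusted p under 0.05 in 1 limma model of all 5 groups over all tested genes. CG11360 was also brighter in all mutant arrays, but it is among the 40 genes only through those arrays, a choice that favours a rise. The quartiles of the log2 change over the 40 genes were -0.14 and 0.26 in labelled double mutants, -0.02 and 0.37 in HP1a mutants, -0.16 and 0.18 in the Setdb1 group and -0.33 and 0.25 in Su(var)3-9 mutants, and the heat map shows each gene by array.

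**Figure D1:**
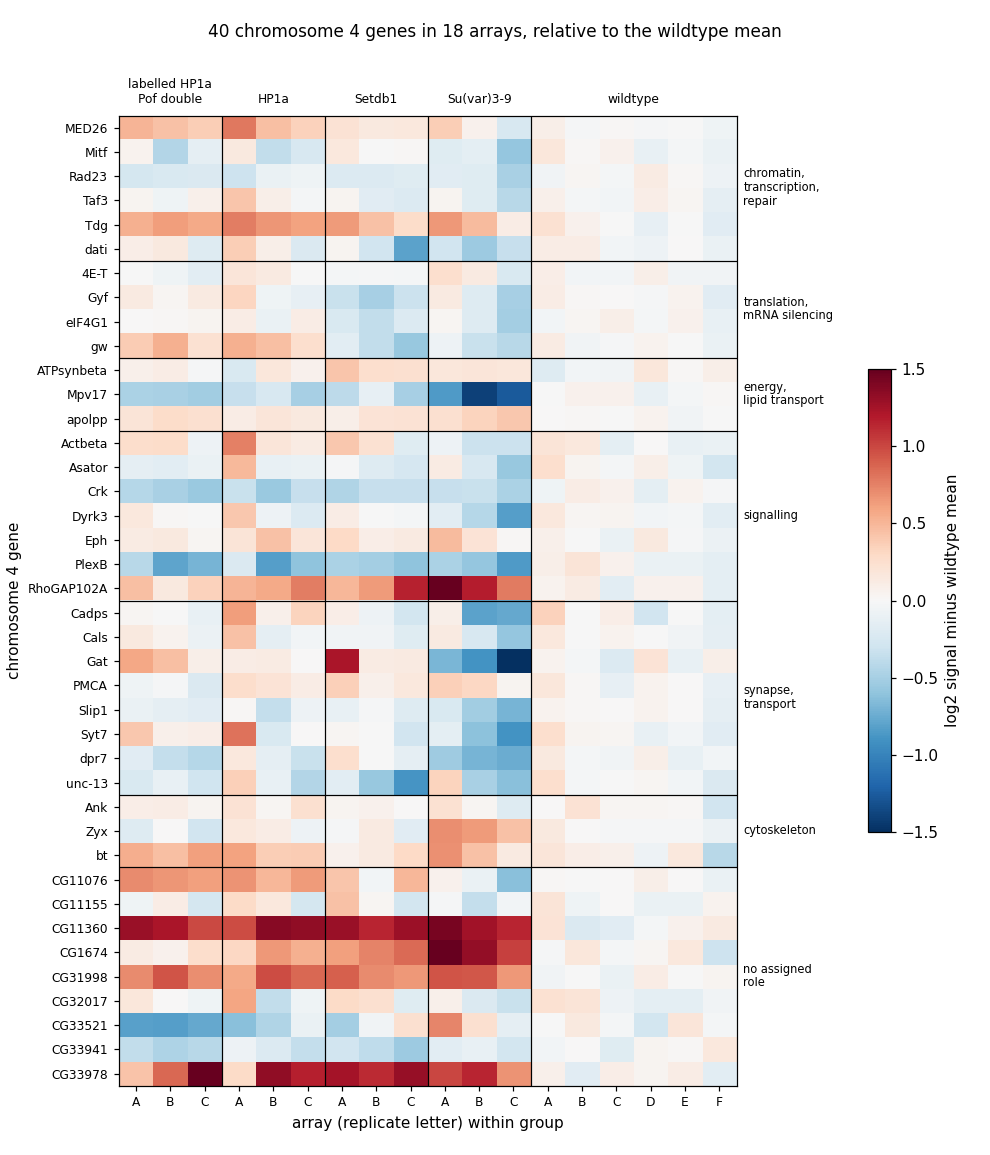
Log2 signal of each of the 40 genes (rows, by role) in each of the 18 arrays (columns, by group) minus the mean of the 6 wildtype arrays; red is higher and blue lower, and the colour scale ends at 1.5 in each direction. CG11360, CG31998 and CG33978 are red in all 12 mutant arrays, and Mpv17 and Gat are most blue in Su(var)3-9 mutants.

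In labelled double mutants 9 of the 40 genes were called higher and 7 lower than in wildtype, beside 25.0% and 35.8% of all tested genes. In HP1a mutants 12 were called higher and 4 lower, beside 23.5% and 35.6%. In Setdb1 mutants the counts were 8 higher and 9 lower, beside 17.3% and 35.2%, and in Su(var)3-9 mutants 11 higher and 14 lower, beside 16.3% and 47.6%. As shares of the 40 genes, the rises came to 22.5%, 30.0%, 20% and 27.5% and the falls to 17.5%, 10%, 22.5% and 35.0% in the same order of groups, so the share of falls lay under that of all tested genes in each. The median log2 change of the 40 genes was 0.04, 0.09, 0.03 and -0.19, beside -0.05, -0.07, -0.11 and -0.22 over all tested genes. These comparisons share the wildtype arrays, and no test of the list was made. The counts by role below stand beside the same shares of all tested genes.

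**Figure D2:**
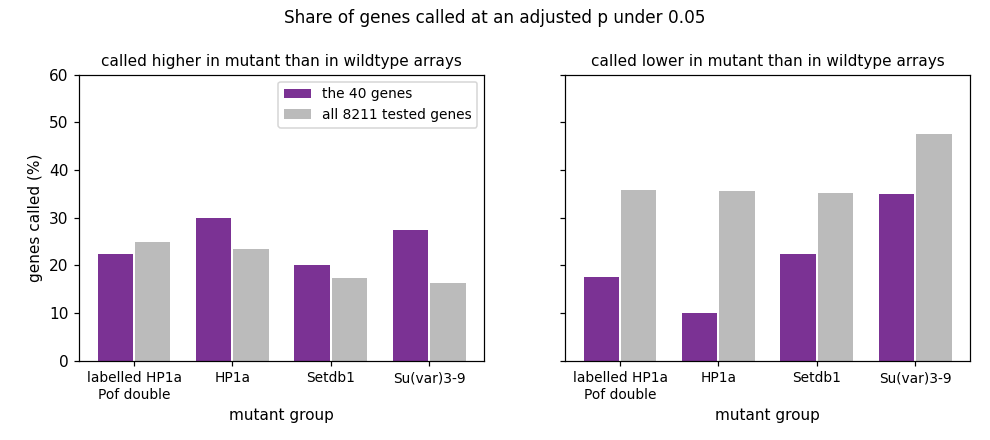
Percentage of genes called higher (left) or lower (right) than wildtype at an adjusted p under 0.05 in each mutant group, for the 40 genes (purple) and for all 8211 tested genes (grey). The purple bars for lower genes are below the grey bars in each group, with 17.5% against 35.8% in arrays labelled HP1a Pof double mutant and 35.0% against 47.6% in Su(var)3-9 mutants. The chromosome 4 genes set aside beforehand, chosen in part for large changes, are not among the 40.

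In HP1a, Setdb1 and Su(var)3-9 mutants the split between rises and falls depended on whether arrays were centred on their tested genes. The median over all probe sets was 5.93 to 6.03 in every array. The median over tested genes ran from 7.89 to 8.30. It was lowest in Su(var)3-9 array C, at 7.89 beside 8.10 and 8.14 in arrays A and B. Centring every array on the median of its tested genes removed a shift of the median change of all tested genes of -0.11 in the Setdb1 group and -0.22 in Su(var)3-9 mutants; the shift was -0.08 in labelled double mutants and -0.07 in HP1a mutants. On centred values 18 of the 40 genes were higher and 3 lower in HP1a mutants (beside 30.0% and 31.4% of all tested genes), 14 higher and 5 lower in Setdb1 mutants (25.6% and 26.5%), and 16 higher and 5 lower in Su(var)3-9 mutants (29.2% and 28.7%). Calls that were lost or gained after centring are given with their genes below.

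Of the 6 genes for chromatin, transcription and DNA repair, 2 rose and 1 fell in labelled double mutants, 2 rose in HP1a mutants, 1 rose and 1 fell in Setdb1 mutants, and 1 rose and 3 fell in Su(var)3-9 mutants. Tdg, a thymine DNA glycosylase of base excision repair, was higher in every mutant group: its mean log2 signals were 8.87 ± 0.05, 8.97 ± 0.08, 8.74 ± 0.18 and 8.71 ± 0.27 in the labelled double, HP1a, Setdb1 and Su(var)3-9 mutants, against 8.29 ± 0.14 in wildtype. The changes were 0.58, 0.68, 0.45 and 0.41 on the log2 scale, each with an SE of 0.11 (limma adjusted p = 0.000289, 7.14e-05, 0.0029 and 0.00401). In Su(var)3-9 mutants 1 array, at 8.41, lay within the wildtype range of 8.13 to 8.53, and no other mutant array did. Tdg overlaps the set-aside gene zfh2. Its Su(var)3-9 call was lost when wildtype arrays D to F were dropped (adjusted p = 0.0545). MED26, a subunit of the Mediator complex, was higher by 0.44 ± 0.11 in labelled double mutants and by 0.53 ± 0.11 in HP1a mutants (SE; adjusted p = 0.00232 and 0.000587), and its changes of 0.18 in the Setdb1 group and 0.07 in Su(var)3-9 mutants were not called, though both were after centring (0.29 and 0.29, adjusted p = 0.0159 and 0.0131). The moderated F test over the 4 mutant groups called a difference for MED26 (adjusted p = 0.0161).

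Rad23, known in yeast as a factor of nucleotide excision repair, had values of 10.13 to 10.18 in labelled double mutants, 10.09 to 10.33 in HP1a mutants, 10.19 to 10.22 in the Setdb1 group and 9.91 to 10.22 in Su(var)3-9 mutants, against 10.32 to 10.52 in wildtype. It was called lower in 3 of these groups, by changes of -0.24, -0.20 and -0.28, and not in HP1a mutants (-0.16, adjusted p = 0.0833). In a fit blocked by replicate letter the adjusted p of the Setdb1 change was 0.147, and that call was also lost after centring and without any 1 Setdb1 array or wildtype array B, D or E (highest adjusted p of 0.245). The call in labelled double mutants was lost in the blocked fit (adjusted p = 0.0757), though the letters did not pair these groups, and without array A of that group, and the Su(var)3-9 change was -0.06 after centring (0.44). dati, a zinc finger transcription factor gene, and Mitf, a transcription factor of lysosomal genes, were near the limit of brightness, at 5.38 to 5.64 and 5.56 to 5.995 in Su(var)3-9 mutants against 5.82 to 6.04 and 6.04 to 6.32 in wildtype. No Su(var)3-9 array of either gene reached log2 6, so both passed the limit through other groups, a choice that favours a fall there. Both are nonetheless counted as called lower in Su(var)3-9 mutants. Their falls of -0.39 and -0.30 in that group (limma adjusted p = 0.0328 and 0.0467) were not called after centring, among other alternatives (highest adjusted p of 0.362 and 0.548). The dati call was also lost without Su(var)3-9 array B or C or wildtype array A or B, and the Mitf call without Su(var)3-9 array C, wildtype array A, B, C or E, any Setdb1 array, or array C of either group with HP1a alleles. The blocked fit called dati lower in Setdb1 mutants (-0.41, adjusted p = 0.034). Taf3, a subunit of TFIID, was not called in any comparison, with changes between -0.19 and 0.16, but after centring it was called higher in HP1a mutants (0.23, adjusted p = 0.0377).

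Of the 4 genes for translation and silencing of mRNA, 1 rose in labelled double mutants and in HP1a mutants, 3 fell in Setdb1 mutants and 2 fell in Su(var)3-9 mutants. The riser was gw, which encodes GW182, the partner of Argonaute in microRNA silencing. Its log2 signals were 10.56, 10.71 and 10.41 in labelled double mutants, 10.72, 10.63 and 10.43 in HP1a mutants, 10.03, 9.81 and 9.62 in the Setdb1 group and 10.10, 9.85 and 9.76 in Su(var)3-9 mutants, against a wildtype range of 10.08 to 10.31 with a median of 10.17. All 6 arrays with HP1a alleles were thus above the wildtype range, all 3 Setdb1 arrays below it, and Su(var)3-9 array A within it. The changes were 0.38, 0.41, -0.36 and -0.28 with SEs of 0.10 (adjusted p = 0.00391, 0.00246, 0.00677 and 0.0254), and the F test over the mutant groups gave an adjusted p of 6.19e-05. After centring the Su(var)3-9 change of gw was -0.05 (adjusted p = 0.652), and that call was also lost without Su(var)3-9 array B or C. Without Setdb1 array C the Setdb1 change had an adjusted p of 0.0631.

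Gyf, a GYF domain protein of translational repression, and eIF4G1, the scaffold of the cap-binding complex, were lower in Setdb1 mutants, with 9.94 ± 0.10 against 10.32 ± 0.09 and 11.50 ± 0.09 against 11.76 ± 0.07 in wildtype. Their changes were -0.38 and -0.27 (adjusted p = 0.013 and 0.0248). The Gyf call was lost without Setdb1 array B (adjusted p = 0.0621). The eIF4G1 call was lost in the blocked fit (0.0633), after centring (0.0999) and without Setdb1 array B (highest of 0.111 over the alternatives). In Su(var)3-9 mutants the eIF4G1 change of -0.22 (adjusted p = 0.0488, 0.0943 in the blocked fit) was 0.001 after centring and was lost under 19 of 26 alternatives, among them leaving out any 1 of 14 arrays. That change was -0.35 without Su(var)3-9 array A and -0.08 without array C. 4E-T, which binds the cap-binding protein eIF4E, lay between 8.81 and 9.29 in all arrays and was not called. After centring 4E-T was called higher in HP1a mutants (0.17, adjusted p = 0.0338) and in Su(var)3-9 mutants (0.27, adjusted p = 0.00254, beside 0.05 uncentred).

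Among the 3 genes for energy metabolism, mitochondria and lipid transport, Mpv17 was lower and apolpp slightly higher in each mutant group. Mpv17 encodes a protein known in mammals from the inner mitochondrial membrane. It gave 8.93, 8.92 and 8.89 in labelled double mutants, 9.05, 9.16 and 8.90 in HP1a mutants, 9.01, 9.28 and 8.91 in the Setdb1 group and 8.56, 8.0 and 8.15 in Su(var)3-9 mutants, against 9.29 to 9.47 (median 9.41) in wildtype. No mutant array reached the wildtype range, and the Su(var)3-9 arrays were lower than all others. The changes were -0.49, -0.37, -0.34 and -1.17, with SEs of 0.11 (adjusted p = 0.000738, 0.00726, 0.0139 and 1.91e-07), and the F test called the difference among mutants (1.52e-04). The Setdb1 call was lost without Setdb1 array A or C and after centring (highest adjusted p of 0.0921), and the HP1a call without HP1a array C (0.0513). An annotated antisense RNA, asRNA:CR44031, overlaps almost the whole of Mpv17, and the strand that the probe set measures is not given here.

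apolpp, which encodes the precursor of the apolipophorins that carry lipid in haemolymph, averaged 13.75 ± 0.04 in labelled double mutants, 13.66 ± 0.04 in HP1a mutants, 13.68 ± 0.07 in the Setdb1 group and 13.84 ± 0.09 in Su(var)3-9 mutants, against 13.51 ± 0.04 in wildtype. No mutant value overlapped the wildtype range, and the changes of 0.24, 0.15, 0.17 and 0.33 were called. The blocked fit lost the HP1a and Setdb1 calls (adjusted p = 0.0967 and 0.0698). Leaving out HP1a array B or C or wildtype array E also lost the HP1a call (highest of 0.116 over the alternatives), and leaving out Setdb1 array B or C lost the Setdb1 call (0.0859). Averaged over 3 fat body markers, of which apolpp is 1, log2 signals were 11.77 to 11.88 in labelled double mutants, 11.82 to 11.95 in HP1a mutants, 11.9 to 12.11 in the Setdb1 group and 11.79 to 12.01 in Su(var)3-9 mutants, against 12.05 to 12.2 in wildtype. Of the other markers, Lpin was called lower in each group (-0.89, -0.79, -0.425 and -0.84). FASN1 was called lower in labelled double mutants alone (-0.21), so the 3 markers did not move together. The part of fat body content in the values of apolpp was not tested. ATPsynbeta, the catalytic beta subunit of ATP synthase, was called higher in Setdb1 mutants, at 13.59 ± 0.10 against 13.29 ± 0.13 in wildtype (change 0.30 ± 0.09 SE, adjusted p = 0.0093). Without Setdb1 array A that adjusted p was 0.058. In Su(var)3-9 mutants its change of 0.17 was not called (adjusted p = 0.0991), but it was in the blocked fit (0.27, adjusted p = 0.0398) and after centring (0.40, adjusted p = 0.00278). A second probe set of ATPsynbeta, above the brightness limit in all 18 arrays, differed by 0.01 in Setdb1 and -0.2 in Su(var)3-9 mutants. With the mean of both, the limma change was 0.16 in Setdb1 mutants (adjusted p = 0.0249) and -0.01 in Su(var)3-9 mutants (not called).

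**Figure D3:**
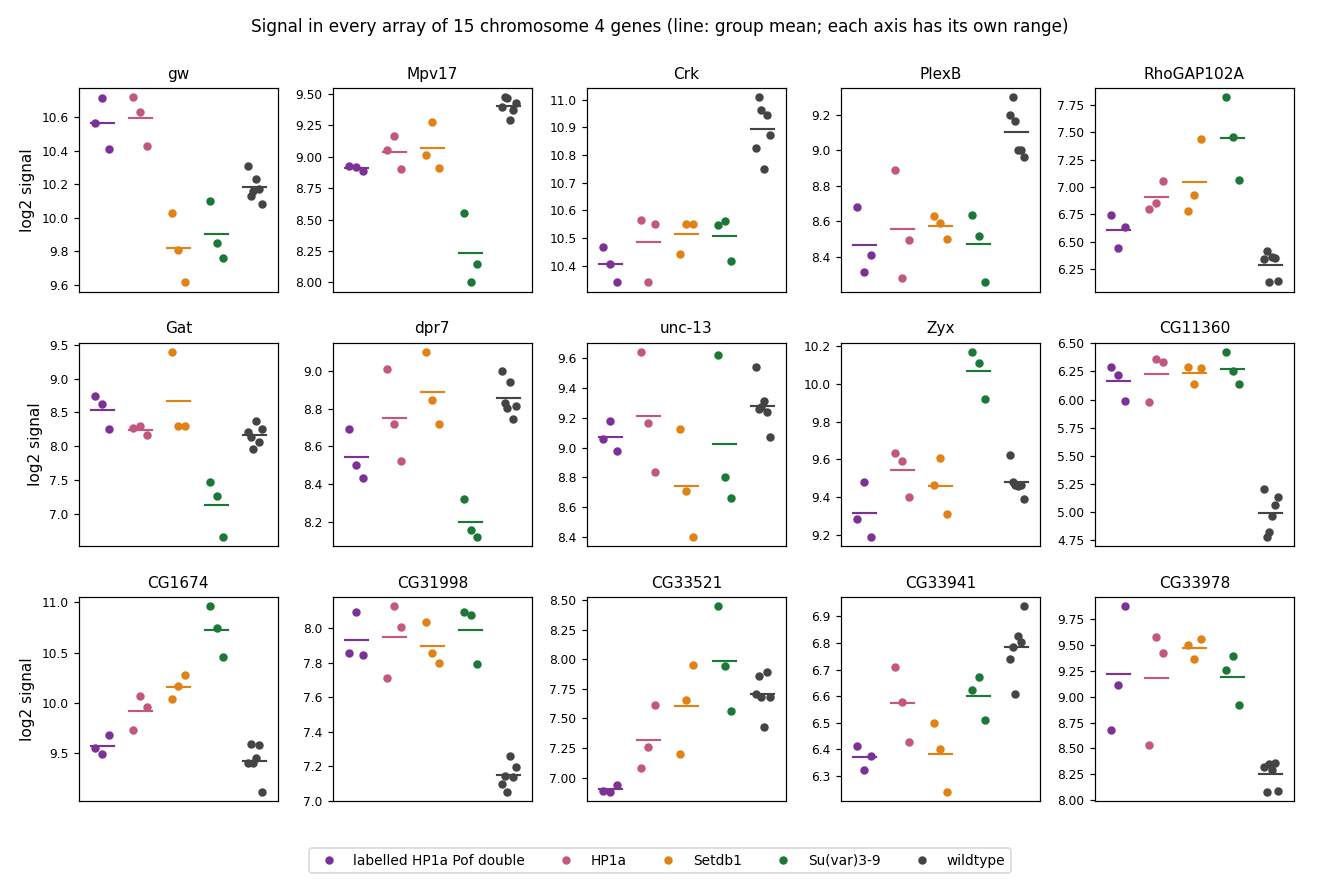
Log2 signal in every array (points) with group means (lines) for 15 of the 40 genes: those with up to 3 of the greatest called rises or falls in a comparison, or the 3 smallest adjusted p in the F test over mutant groups; each panel has its own vertical range. CG11360, CG31998, CG33978, Crk and PlexB separate all mutant groups from wildtype, as do RhoGAP102A and Mpv17 by narrow gaps. Gat and Zyx separate Su(var)3-9 mutants from wildtype, and dpr7 separates Su(var)3-9 and labelled double mutants from it.

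The 7 genes for receptors, ligands and intracellular signalling gave no rise and 2 falls in labelled double mutants, 2 rises and 2 falls in HP1a mutants, 1 rise and 2 falls in Setdb1 mutants, and 2 rises and 3 falls in Su(var)3-9 mutants. Crk, an adaptor protein with SH2 and SH3 domains, gave 10.47, 10.41 and 10.34 in labelled double mutants, 10.56, 10.34 and 10.55 in HP1a mutants, 10.44, 10.55 and 10.55 in the Setdb1 group and 10.55, 10.56 and 10.42 in Su(var)3-9 mutants, against 10.75 to 11.01 (median 10.91) in wildtype. Every mutant array was below every wildtype array. The changes of -0.49, -0.41, -0.38 and -0.39 had SEs of 0.07 (adjusted p = 2.59e-05, 0.00016, 0.000403 and 0.000243). After centring the Su(var)3-9 change was -0.16 (adjusted p = 0.0614).

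PlexB, a plexin receptor for semaphorins, gave 8.68, 8.32 and 8.41 in labelled double mutants, 8.89, 8.28 and 8.50 in HP1a mutants, 8.63, 8.59 and 8.50 in the Setdb1 group and 8.63, 8.52 and 8.26 in Su(var)3-9 mutants, against 8.96 to 9.30 (median 9.08) in wildtype. All mutant arrays were lower, by changes of -0.63, -0.55, -0.53 and -0.63 with SEs of 0.13 (adjusted p = 0.000377, 0.00138, 0.00216 and 0.000377). This rests on 1 of 4 probe sets: with their mean, the changes were -0.10, 0.01, -0.11 and -0.16 and none was called. The second probe set, at log2 6 or above in all 18 arrays, differed in the opposite direction (0.16, 0.15, 0.33 and 0.16).

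RhoGAP102A gave 6.74, 6.44 and 6.64 in labelled double mutants, 6.80, 6.86 and 7.06 in HP1a mutants, 6.78, 6.92 and 7.44 in the Setdb1 group and 7.82, 7.46 and 7.07 in Su(var)3-9 mutants, against 6.13 to 6.42 (median 6.35) in wildtype. All 12 mutant arrays lay above wildtype, and the mean was nearest to wildtype in labelled double mutants. The changes were 0.32, 0.62, 0.76 and 1.16 with SEs of 0.15. The first was not called (adjusted p = 0.0853; 0.0196 after centring) and the other 3 were (0.00256, 0.00063 and 8.28e-06), and the F test called the difference among mutants (0.00627).

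Eph, the ephrin receptor, was called higher in HP1a mutants, at 8.31 ± 0.14 against 8.04 ± 0.09 in wildtype (0.27, adjusted p = 0.0192), and in Su(var)3-9 mutants (0.23, adjusted p = 0.0403). The HP1a call was lost without HP1a array B (highest adjusted p of 0.124 over the alternatives). The Su(var)3-9 call was lost in the blocked fit (0.056) and without Su(var)3-9 array A or B or wildtype array B, C, E or F (highest of 0.302). After centring Eph was also called higher in Setdb1 mutants (0.29, adjusted p = 0.00739, beside 0.18 uncentred). Dyrk3, a protein kinase of the DYRK family, had values of 6.91 to 7.59 in Su(var)3-9 mutants against 7.59 to 7.90 in wildtype, a change of -0.47 ± 0.13 (SE, adjusted p = 0.00591). Dyrk3 lost that call after centring and without Su(var)3-9 array C (highest adjusted p of 0.0738), and its changes in the other groups were between 0.03 and 0.06. Actbeta, an activin ligand, was not called against wildtype in any group. Its means of 6.91, 7.10, 6.90 and 6.51 in the labelled double, HP1a, Setdb1 and Su(var)3-9 mutants, against 6.75 in wildtype, differed among mutants by the F test (adjusted p = 0.0465), and the blocked fit called its Su(var)3-9 change (-0.31, adjusted p = 0.0363). After centring Actbeta was called higher in HP1a mutants (0.42, adjusted p = 0.0214). Asator, a protein kinase, was not called, with changes between -0.23 and 0.09.

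Of the 8 genes for synapse and membrane transport, none rose and 1 fell in labelled double mutants, none was called in HP1a mutants, 1 fell in Setdb1 mutants, and 1 rose and 5 fell in Su(var)3-9 mutants. The median change of these 8 genes in Su(var)3-9 mutants was -0.49, beside -0.22 and a share of 47.6% called lower over all tested genes, and after centring 2 of the 5 falls (Syt7 and Cadps) were not called. Averaged over 4 neuronal markers, log2 signals were 7.79 to 8.11 in labelled double mutants, 7.57 to 7.75 in HP1a mutants, 7.18 to 7.49 in the Setdb1 group and 7.04 to 7.49 in Su(var)3-9 mutants, against 7.09 to 7.25 in wildtype. Of these 4 markers 3 were called higher in labelled double mutants, 2 in HP1a mutants, and 1 higher and 1 lower in both Setdb1 and Su(var)3-9 mutants. Over all tested genes 25.0%, 23.5%, 17.3% and 16.3% were called higher in the same order of groups. The share called lower was 35.2% in Setdb1 and 47.6% in Su(var)3-9 mutants. VGlut is counted as higher in each group, but it passed the brightness limit only through arrays with HP1a alleles, a choice that favours a rise there. Its Setdb1, Su(var)3-9 and wildtype values were all under log2 6 (at most 4.98 in wildtype). The part of neuronal content in the gene values was not tested.

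Gat, a transporter of the transmitter GABA, gave 7.48, 7.27 and 6.66 in Su(var)3-9 mutants against 7.97 to 8.37 (median 8.18) in wildtype. The other mutants gave 8.75, 8.62 and 8.25 (labelled double), 8.27, 8.29 and 8.17 (HP1a) and 9.40, 8.29 and 8.30 (Setdb1). The Su(var)3-9 arrays were thus below every other array, and Setdb1 array A was above every other. The Su(var)3-9 change was -1.03 ± 0.21 (SE, adjusted p = 0.000575), 0.489 times the wildtype level, and the F test over mutants gave 4.68e-04. The Setdb1 change of 0.50 was not called (adjusted p = 0.0623), though it was in the blocked fit (0.0347) and after centring (0.0199).

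dpr7, a member of the Dpr family of immunoglobulin-domain surface proteins, gave 8.69, 8.50 and 8.43 in labelled double mutants, 9.01, 8.72 and 8.52 in HP1a mutants, 9.10, 8.85 and 8.72 in the Setdb1 group and 8.32, 8.16 and 8.12 in Su(var)3-9 mutants, against 8.75 to 9.00 (median 8.82) in wildtype. Its values were below the wildtype range in every Su(var)3-9 array and in every array labelled HP1a Pof double mutant. The changes there were -0.66 ± 0.11 and -0.32 ± 0.11 (SE, adjusted p = 6.07e-05 and 0.0172), and the second was lost after centring and without array B or C of its group (highest adjusted p of 0.0867). The F test over mutants gave an adjusted p of 0.00138 for dpr7.

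Slip1, which encodes a binding partner of the Slowpoke potassium channel, was lower in Su(var)3-9 mutants, at 8.04 to 8.51 against 8.61 to 8.80 in wildtype (-0.48 ± 0.10 SE, adjusted p = 0.00037). Syt7, a synaptotagmin, ran from 7.90 to 8.65 in Su(var)3-9 mutants and from 8.62 to 9.05 in wildtype (-0.55 ± 0.19 SE, adjusted p = 0.0203). The brightest probe set of Cadps, a factor of dense-core vesicle release, gave 6.99 to 7.89 in Su(var)3-9 mutants and 7.51 to 8.14 in wildtype (-0.50 ± 0.18 SE, adjusted p = 0.0244). Slip1 kept its call under every alternative run, while the calls of Syt7 and Cadps were lost after centring and without Su(var)3-9 array B or C (highest adjusted p of 0.145 and 0.189). Without Su(var)3-9 array A the Cadps change was -0.79, and after centring Cadps was called higher in HP1a mutants (0.42, adjusted p = 0.0476).

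unc-13, which primes synaptic vesicles for release, gave 9.12, 8.71 and 8.40 in Setdb1 mutants against 9.07 to 9.54 (median 9.27) in wildtype. In the other mutants it gave 9.06, 9.18 and 8.98 (labelled double), 9.64, 9.17 and 8.84 (HP1a) and 9.62, 8.80 and 8.66 (Su(var)3-9). Setdb1 array A was within the wildtype range and the other 2 below it. The Setdb1 change of -0.54 ± 0.20 (SE, adjusted p = 0.0359) was lost without Setdb1 array B or C, without any 1 of wildtype arrays A to D, and after centring (highest adjusted p of 0.205). PMCA, the plasma membrane calcium pump, was called higher in Su(var)3-9 mutants, at 11.07 ± 0.17 against 10.83 ± 0.11 in wildtype (0.24, adjusted p = 0.0292). That call was lost without Su(var)3-9 array A or B or wildtype array C or F (highest of 0.134). After centring PMCA was also called higher in HP1a (0.26, adjusted p = 0.00742) and Setdb1 mutants (0.31, adjusted p = 0.00334). Cals, a calsyntenin, was not called, with changes between -0.23 and 0.09.

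Among the 3 genes for cytoskeleton and muscle, bt rose in 3 mutant groups and Zyx in Su(var)3-9 mutants. bt encodes projectin, the titin-like protein of muscle, and averaged 12.65 ± 0.08 in labelled double mutants, 12.57 ± 0.13 in HP1a mutants, 12.27 ± 0.12 in the Setdb1 group and 12.53 ± 0.27 in Su(var)3-9 mutants, against 12.11 ± 0.23 in wildtype. The changes were 0.54, 0.46, 0.16 and 0.41 with SEs of 0.13 (adjusted p = 0.00199, 0.0068, 0.311 and 0.0111), and the last was not called in the blocked fit (0.0538) or without Su(var)3-9 array A (highest of 0.0865). After centring the Setdb1 change of bt was also called (0.27, adjusted p = 0.0493). Averaged over 3 muscle markers, log2 signals were 11.93 to 11.99 in labelled double mutants, 11.63 to 11.83 in HP1a mutants, 11.91 to 12.1 in the Setdb1 group and 12 to 12.27 in Su(var)3-9 mutants, against 11.81 to 12.13 in wildtype. Of these 3 markers 2 were called lower in HP1a mutants and none in either direction in the other groups. Over all tested genes 35.6% were called lower in HP1a mutants. The part of muscle content in the values of bt was not tested.

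Zyx, the focal adhesion protein zyxin, gave 9.28, 9.48 and 9.19 in labelled double mutants, 9.63, 9.59 and 9.40 in HP1a mutants, 9.46, 9.61 and 9.31 in the Setdb1 group and 10.17, 10.11 and 9.92 in Su(var)3-9 mutants, against 9.39 to 9.62 (median 9.47) in wildtype. The Su(var)3-9 arrays stood above all others, with a change of 0.59 ± 0.09 (SE, adjusted p = 2.76e-05) and an F test over mutants of 1.38e-04. Zyx overlaps apolpp over 52.8% of its annotated length, and whether its probe set lies in the shared stretch is not given here. Ank, an ankyrin that joins membrane proteins to spectrin, was not called, with changes between 0.02 and 0.16, but after centring it was called higher in HP1a (0.23, adjusted p = 0.0256) and Su(var)3-9 mutants (0.24, adjusted p = 0.0197).

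Of the 9 genes without an assigned role, 4 rose and 2 fell in labelled double mutants, 5 rose and 1 fell in HP1a mutants, 4 rose and 1 fell in Setdb1 mutants, and 4 rose and none fell in Su(var)3-9 mutants. Over all tested genes 25.0%, 23.5%, 17.3% and 16.3% were called higher and 35.8%, 35.6%, 35.2% and 47.6% lower in the same order. CG11360 gave 6.29, 6.22 and 5.99 in labelled double mutants, 5.98, 6.36 and 6.33 in HP1a mutants, 6.29, 6.14 and 6.28 in the Setdb1 group and 6.42, 6.25 and 6.14 in Su(var)3-9 mutants, against 4.78 to 5.21 (median 5.02) in wildtype. No wildtype array reached the brightness limit for CG11360, which therefore entered the 40 genes through mutant arrays, and all mutant arrays were above all wildtype arrays. The group means differed from wildtype by 1.17, 1.23, 1.24 and 1.28, which is given as a description with no fold or test, since the wildtype arrays lie under the limit and the gene was kept for its mutant values. It is nonetheless 1 of the genes counted as called higher in each group. Its second probe set, which stayed under the limit, differed by 0.31, 0.16, -0.04 and 0.15.

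CG31998 gave 7.86, 8.10 and 7.84 in labelled double mutants, 7.71, 8.13 and 8.01 in HP1a mutants, 8.04, 7.86 and 7.80 in the Setdb1 group and 8.09, 8.08 and 7.79 in Su(var)3-9 mutants, against 7.05 to 7.26 (median 7.14) in wildtype. All mutant arrays were above the wildtype range and the mutant groups overlapped each other. The changes of 0.79, 0.80, 0.75 and 0.84 had SEs of 0.10 (adjusted p = 4.28e-06, 4.17e-06, 1.32e-05 and 2.41e-06) and were called under every alternative run. The main probe set of CG33978 gave 8.68, 9.11 and 9.87 in labelled double mutants, 8.53, 9.58 and 9.42 in HP1a mutants, 9.50, 9.37 and 9.56 in the Setdb1 group and 9.26, 9.40 and 8.92 in Su(var)3-9 mutants, against 8.08 to 8.36 (median 8.31) in wildtype. These values were again above the wildtype range in all mutant arrays, with a wide spread in the groups with HP1a alleles. The changes were 0.97, 0.93, 1.23 and 0.94 with SEs of 0.23 (adjusted p = 0.00154, 0.00232, 0.000321 and 0.00193). Without array C the change in labelled double mutants was 0.65 (adjusted p = 0.0178).

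CG1674 differed among the mutants. It gave 9.55, 9.49 and 9.68 in labelled double mutants, 9.73, 10.07 and 9.96 in HP1a mutants, 10.04, 10.16 and 10.28 in the Setdb1 group and 10.96, 10.75 and 10.45 in Su(var)3-9 mutants, against 9.12 to 9.59 (median 9.43) in wildtype. Labelled double mutants overlapped wildtype, and each other mutant group lay above it. The changes were 0.15, 0.49, 0.74 and 1.30 with SEs of 0.12 (adjusted p = 0.288, 0.00198, 9.32e-05 and 2.15e-07), the last being 2.46-fold, and the F test over mutants gave 6.46e-05. The second probe set of CG1674 differed by 0.19, 0.51, 0.49 and 0.55.

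CG33521 gave 6.89, 6.88 and 6.94 in labelled double mutants, 7.09, 7.26 and 7.61 in HP1a mutants, 7.20, 7.65 and 7.95 in the Setdb1 group and 8.45, 7.94 and 7.57 in Su(var)3-9 mutants, against 7.43 to 7.89 (median 7.69) in wildtype. The labelled double mutants lay wholly below the wildtype range, and each other mutant group overlapped it. Their change was -0.80 ± 0.18 (SE, adjusted p = 0.00102), or 0.574 times the wildtype level, and the changes of -0.39, -0.11 and 0.28 in HP1a, Setdb1 and Su(var)3-9 mutants were not called (0.0703, 0.642 and 0.181). After centring the Su(var)3-9 change of CG33521 was called (0.50, adjusted p = 0.0176). The F test over the mutants gave an adjusted p of 0.00301.

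CG33941 gave 6.41, 6.32 and 6.37 in labelled double mutants, 6.71, 6.58 and 6.43 in HP1a mutants, 6.50, 6.40 and 6.24 in the Setdb1 group and 6.62, 6.67 and 6.51 in Su(var)3-9 mutants, against 6.61 to 6.94 (median 6.80) in wildtype. The labelled double and Setdb1 mutants lay below the wildtype range, and the other 2 groups overlapped it. The changes were -0.41, -0.21, -0.40 and -0.18 with SEs of 0.08 (adjusted p = 0.000366, 0.0347, 0.000651 and 0.0598), and the HP1a call was lost in the blocked fit (0.152), after centring (0.135) and without HP1a array B or C or wildtype array B, D, E or F (highest of 0.251). CG33941 overlaps Asator, which was not called. CG11076 was higher in both groups with HP1a alleles, at 10.97 ± 0.05 in labelled double mutants and 10.92 ± 0.09 in HP1a mutants against 10.31 ± 0.06 in wildtype. These changes of 0.66 and 0.61 (adjusted p = 0.000336 and 0.000779) stood beside 0.29 in Setdb1 and -0.22 in Su(var)3-9 mutants, neither called, and an F test of 6.26e-04. After centring the Setdb1 change of CG11076 was called (0.40, adjusted p = 0.0068). CG11155 and CG32017 were not called, with changes between -0.16 and 0.12.

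The comparison of labelled double mutants with HP1a mutants asks what the added Pof allele changed. None of the 40 genes was called in it by limma, beside 0.244% of all tested genes called higher and 0.487% called lower. The chromosome 4 genes most lowered with Pof had been set aside before this count. Of the 15 tested set-aside genes 2 were called lower (13.3%) and none higher, so the lack of calls does not extend to chromosome 4 as a whole. At an unadjusted p under 0.05, none of the 40 genes was higher and 4 were lower: PMCA, CG1674, Zyx and CG33941. The differences of these were -0.29, -0.35, -0.23 and -0.20 (adjusted p = 0.427, 0.561, 0.683 and 0.724). Of the 40 genes 31 had a negative difference, and the median was -0.08, beside 0.005 over all tested genes, of which 3955 of 8211 were negative. Over all tested genes, 201 were higher and 356 lower at an unadjusted p under 0.05. Among the 15 tested set-aside genes none was higher and 7 were lower at that threshold.

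The intervals show what differences these arrays leave possible under the fit without the replicate block. Replicate letters paired these groups by the rule used here, and the intervals do not take that pairing into account. The lowest estimate was that of CG33521, at -0.41 with a 95% interval of -0.85 to 0.02 (adjusted p = 0.789), and its arrays did not overlap between the groups (6.88 to 6.94 against 7.09 to 7.61). Cadps followed with -0.38 (-0.82 to 0.07). For apolpp, with the narrowest interval, the difference was 0.09 (-0.04 to 0.23), and for CG33978, with the widest, it was 0.04 (-0.51 to 0.60). An adjusted p above the threshold does not show that the groups were alike for these genes.

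**Figure D4:**
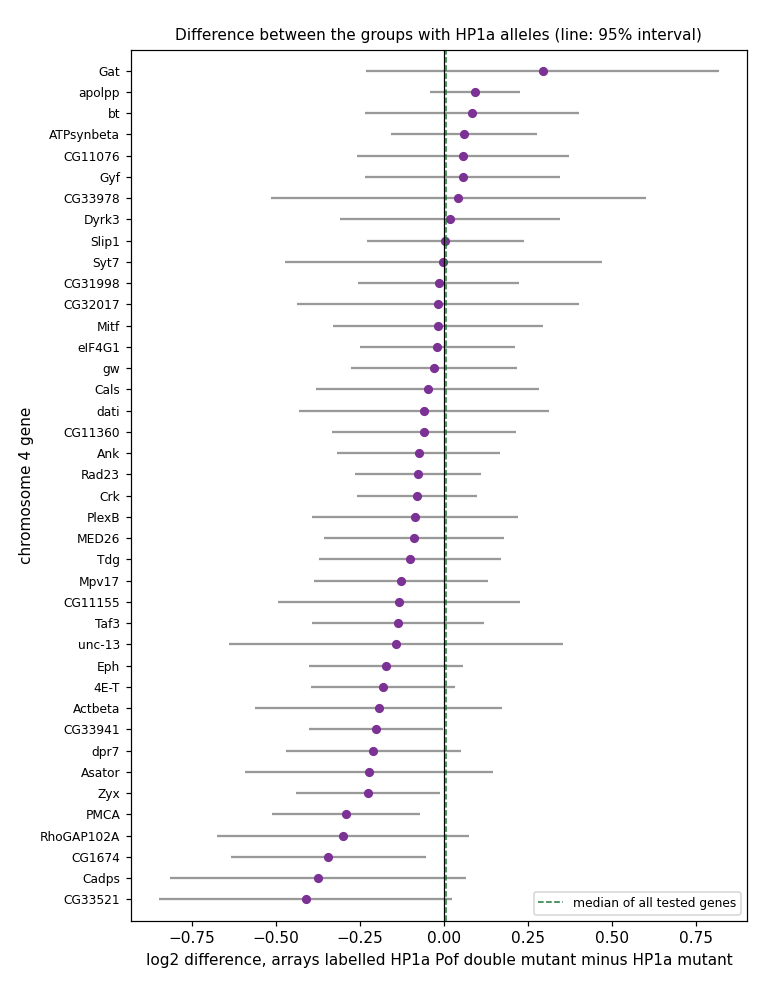
Log2 difference of arrays labelled HP1a Pof double mutant minus HP1a mutants for each of the 40 genes (points), with 95% intervals of the fit without the replicate block (lines) and the median of all tested genes (dashed). Of the 40 points 31 lie below 0, from -0.41 for CG33521 upward, and Gat, at 0.29, is the highest.

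Over the 4 mutant groups together, the F test called 18 of the 40 genes (45.0%), beside 53.5% of all tested genes. The range of the 4 group means of a gene ran from 0.09 to 1.53 with a median of 0.35. On uncentred values 32 of the 40 genes were called in at least 1 pairwise comparison and 8 in none: Ank, Taf3, Asator, 4E-T, Actbeta, Cals, CG11155 and CG32017. Of these 8, Actbeta was called by the F test. The count of 32 has no matching share of all tested genes beside it here. In labelled double mutants alone 25.0% of all tested genes were called higher and 35.8% lower, so the count does not mark out these genes.

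Several probe sets were available for 11 of the 40 genes, and in some they differed in direction. The second probe set of CG33978 gave 5.61 to 5.99 in labelled double mutants, 5.82 to 6.01 in HP1a mutants, 5.56 to 6.12 in the Setdb1 group and 5.19 to 6.15 in Su(var)3-9 mutants, against 6.20 to 6.80 in wildtype, lower in all mutant arrays where the main probe set was higher. Most mutant values of that second probe set were under log2 6. With the mean of both probe sets the changes of CG33978 were 0.12, 0.16, 0.24 and 0.04, and none was called. For Cadps the second probe set gave 7.01 to 7.25 in labelled double mutants, 6.97 to 7.20 in HP1a mutants, 6.69 to 7.16 in the Setdb1 group and 6.63 to 7.18 in Su(var)3-9 mutants, against 5.15 to 5.71 in wildtype. Those differences were 1.63, 1.57, 1.42 and 1.33, beside -0.03, 0.35, -0.09 and -0.50 for the brightest probe set. With the mean of both, Cadps was called higher in all 4 groups (0.80, 0.96, 0.67 and 0.42; adjusted p = 0.000199, 4e-05, 0.00129 and 0.0201), whereas its main probe set was called lower in Su(var)3-9 mutants. The second probe set of Cadps was under log2 6 in every wildtype array, so these rises rest in part on signal near background.

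In PMCA the brightest probe set differed by -0.10, 0.19, 0.20 and 0.24, the second by 0.71, 0.82, 1.11 and 1.13 and the rank 3 probe set by 1.37, 1.62, 0.97 and 0.91. The mean of the 3 was called higher in all 4 groups (0.66, 0.88, 0.76 and 0.76; adjusted p = 3.53e-05, 2.18e-06, 1.6e-05 and 9.18e-06). PMCA overlaps Rnf11, a gene that was set aside, over a part of its length. The probe sets of RhoGAP102A ran in parallel, the second with differences of 0.89, 1.25, 1.4 and 1.88, and the mean of both was called higher in each group, the labelled double mutants included (0.60, adjusted p = 0.00174). Here too the second probe set was under log2 6 in every wildtype array (5.27 to 5.53). Which transcripts each probe set measures is not given here.

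**Figure D5:**
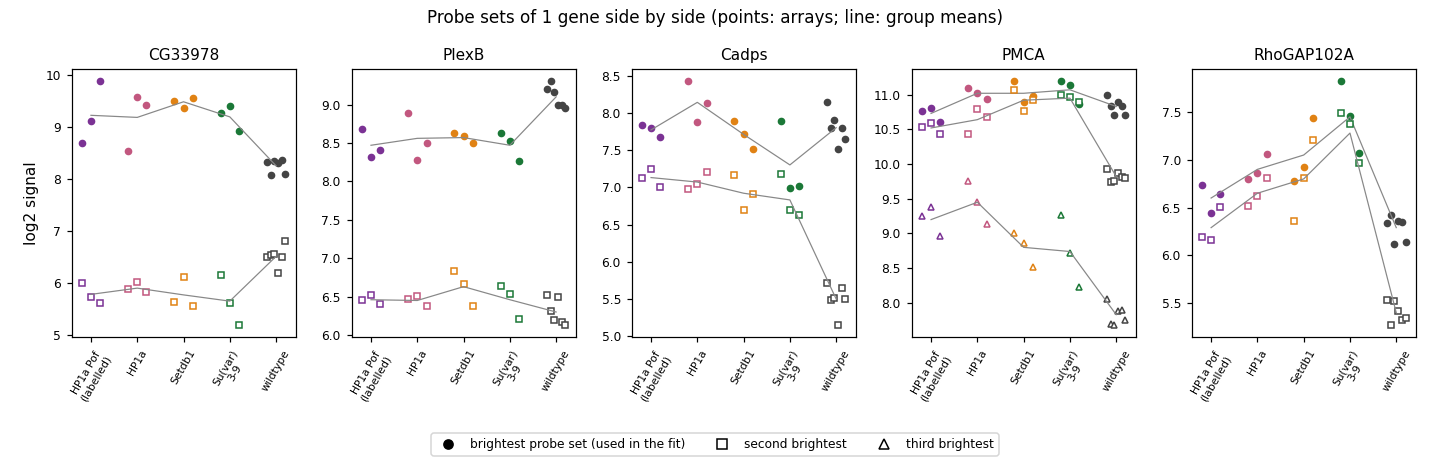
Log2 signal by array for the brightest probe set (filled circles) and the dimmer ones (open symbols) of 5 genes, with group means joined by lines. PlexB is shown with 2 of its 4 probe sets, whose mutant means differ from wildtype in opposite directions. The lower lines of Cadps and PMCA are below every mutant group in wildtype, while their upper lines are not, those of CG33978 run in opposite directions, and those of RhoGAP102A run in parallel.

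The annotated length of the 40 genes ran from 687 to 52075 bp with a median of 11309 bp, against a median of 2720 bp for 8193 tested genes with an annotated length (Release 6 of the assembly; the array values themselves carry no coordinates). Across the 40 genes, Spearman's rank correlation between length and the change against wildtype was 0.24 in labelled double mutants, 0.37 in HP1a mutants, 0.11 in the Setdb1 group and 0.24 in Su(var)3-9 mutants (n = 40 genes). It was -0.02 for the labelled double minus HP1a mutant difference. These values describe genes of the same arrays, which are not independent replicates. Of the 40 genes 18 overlap another annotated gene, 12 of them a protein-coding one.

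Of 18 regulators of chromosome 4 and heterochromatin, 13 were tested. The counts include targeted genes: that of HP1a is among the lower ones in both groups with HP1a alleles. Pof is among the higher ones in labelled double mutants. HP5, called higher in Setdb1 mutants, and HP6, called higher in Su(var)3-9 mutants, were near log2 6 in wildtype. In the labelled double, HP1a, Setdb1 and Su(var)3-9 mutants, 2, 1, 3 and 2 of the 13 were called higher and 3, 4, 6 and 7 lower than in wildtype, beside 25.0%, 23.5%, 17.3% and 16.3% higher and 35.8%, 35.6%, 35.2% and 47.6% lower over all tested genes.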

How the data were processed

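RNA of 18 larval samples was measured on one-colour Affymetrix arrays. The deposited values are log2 signals per probe set that the authors made with RMA, per the submitters' processing notes; its version and any genome build were not given in the sources used here. Of 18952 probe sets, 13647 name 1 gene and 402 several, which were not used; symbols of 13544 were updated through the RefSeq gene table. Each gene was represented by its brightest probe set and kept at a log2 signal of at least 6 in at least 3 of 18 arrays, which left 8211 of 11982 genes.

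Groups were compared in 1 limma model of all 5 groups (limma 3.58.1 in R 4.3.3; moderated t and F, Benjamini-Hochberg adjustment over all tested genes, called under 0.05), tested on simulated data. Values are log2, with SDs over arrays and SEs and 95% intervals from the model. The number of arrays limits the precision. Genes given with every array have up to 3 of the greatest called rises or falls in a comparison, or the 3 smallest adjusted p of the F test; the others are given because every gene is described. The genes, lists and tests were chosen with earlier results of these data known. Replicate letters pair the samples where every same-letter correlation of deviations exceeds 0.1: the lowest was 0.334 for HP1a, 0.27 for Setdb1, 0.105 for Su(var)3-9 mutants and 0.423 for labelled double against HP1a mutants, but 0.0784 for labelled double mutants against wildtype, which are thus not paired. The labels do not say what a letter stands for, and wildtype arrays D to F share no letter with a mutant. Alternatives were centring, the block, array weights, other brightness limits, the mean of probe sets, fewer groups, wildtype arrays A to C alone, and each array left out.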

Additional observations from a re-analysis of the deposited data

Results flagged for a closer look

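Slip1, which encodes a binding partner of the Slowpoke channel, had a log2 signal of 8.61 in wildtype array F, while the other 5 wildtype arrays lay between 8.75 and 8.80. The gap to the nearest array was 0.726 of the range of the group, above Dixon's critical value of 0.625 for 6 arrays. Slip1 was the 1 gene of 40 with such a wildtype array, and chance alone gives about 1 in 20. The call of Slip1 in Su(var)3-9 mutants was kept without that array.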

How the results depend on the processing

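Of 74 calls of the 40 genes against wildtype, 39 were kept under every alternative run, and 3 turned sign under some alternative. Each call had 26 alternatives, 18 of which leave out 1 array, or 25 where the gene is not tested at a brightness limit of 8. Centring the arrays gave 14 genes higher and 5 lower in Setdb1 mutants, and 5 lower in Su(var)3-9 mutants. Fitting the compared groups alone lowered the F count over mutants to 9. With 1 array left out, the counts of genes higher and lower ran from 9 to 10 and 6 to 7 in labelled double mutants, 11 to 14 and 3 to 6 in HP1a mutants, 7 to 11 and 5 to 9 in Setdb1 mutants, and 8 to 13 and 7 to 20 in Su(var)3-9 mutants, and the F count from 11 to 20. Without Setdb1 array B or C, 5 genes were lower in Setdb1 mutants. Without Su(var)3-9 array B or C, 9 or 7 were lower in Su(var)3-9 mutants, and without array B the F count was 11. Labelled double against HP1a mutants gave 0 calls by limma under each of these, beside 4 at an unadjusted p under 0.05. With the replicate block the counts higher and lower were 11 and 3 in HP1a, 8 and 8 in Setdb1 and 10 and 14 in Su(var)3-9 mutants, and 9 and 6 in labelled double mutants, whose letters did not pair; calls that the block changed, that of Rad23 in labelled double mutants included, are given beside their genes. The signs that turned were PlexB in HP1a mutants (0.008) and Cadps in Su(var)3-9 mutants (0.419) with the mean of probe sets, and eIF4G1 in Su(var)3-9 mutants (0.001) after centring; the cause was not tested. Signal near background limits dati, Mitf and CG11360, and the second probe sets of CG33978, Cadps, RhoGAP102A and CG1674.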
